A study of Mus musculus with 7 samples.

Results

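Matricellular proteins are secreted into the extracellular matrix but act mainly as signals to cells rather than as scaffold. They bind integrins, other cell surface receptors, growth factors and structural matrix proteins, and many are made in larger amounts after tissue injury. In the nervous system the thrombospondins and SPARC-like 1 (also called hevin) are known from glial control of synapse formation, tenascins from the barrier and guidance properties of neural matrix, and osteopontin from ganglion cells of the alpha type that survive optic nerve injury well. The genes described here were chosen by name, as the rows of the deposited count table for Thbs1, Thbs2, Thbs4, Spp1, Sparc, Sparcl1, Tnc, Tnr, Ccn1 and Ccn2. All 10 were among the 25655 genes of the table, and all 10 had enough counts to enter the test, which covered 14750 genes.

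RNA was measured in whole retinas of wildtype C57BL/6 mice, all collected 2 days after crush of the optic nerve. The control AAV2 group (3 libraries) had received the vector that the labels call CMV-control-AAV2, and the Tppp3 AAV2 group (3 libraries) a vector for overexpression of Tppp3, a gene of a tubulin polymerization-promoting protein. AAV2 is an adeno-associated virus often used to reach ganglion cells. No uninjured retina is among the libraries, so every level below is that of an injured eye with a vector, and the labels give neither the animals' age nor the promoter of the Tppp3 vector. Nothing in the labels says that each library came from another animal, so the p-values below measure the spread between these libraries. The study asked what changes in the injured retina when Tppp3 is overexpressed, with axon regrowth and ganglion cell survival in view.

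The 6 libraries held 10961443 to 21843892 counts, and each Tppp3 AAV2 library was deeper than each control library. Tppp3 itself was 1.91-fold higher with its vector, with no overlap between groups, at an edgeR adjusted p of 0.639 that ranged from 2.14e-05 to 0.907 over the alternatives. Rod markers summed to between 47905 and 61855 CPM (counts scaled to library size by TMM, as throughout), and of all marker lists used here none had a gene at 0 in all 6 libraries. Pigment epithelium markers stood apart in control replicate 1 and Tppp3 replicates 1 and 3, at 153 to 160 CPM in sum against 45.2 to 61.3 in the other 3 libraries. Microglia and macrophage markers went the opposite way, at 109 to 135 CPM in the first 3 and 201 to 241 in the others. In such whole-tissue RNA, fewer cells of a type and less RNA per cell cannot be told apart.

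RefSeq windows of the 250 bases before an annotated start (build GRCm38.p6, not the build of the count table) were found for 7 of the 10 members. The others are Thbs1, Sparcl1 and Ccn2. The windows were searched on both strands for GGAATG, the core recognised by TEAD factors, for TGANTCA, the AP-1 core, and for the CArG box of serum response factor, and on the gene's strand for TATAAA. The windows of 3 members are shown: Spp1 (the first of its 2 starts) because it had the smallest p of the members, Thbs4 because it varied most, and Ccn1 because it is a textbook target of TEAD. They lie at chr5:104434861-104435110 on the plus strand for Spp1, chr13:92794819-92795068 on the minus strand for Thbs4 and chr3:145649986-145650235 on the minus strand for Ccn1, and capitals mark the matches.
Spp1: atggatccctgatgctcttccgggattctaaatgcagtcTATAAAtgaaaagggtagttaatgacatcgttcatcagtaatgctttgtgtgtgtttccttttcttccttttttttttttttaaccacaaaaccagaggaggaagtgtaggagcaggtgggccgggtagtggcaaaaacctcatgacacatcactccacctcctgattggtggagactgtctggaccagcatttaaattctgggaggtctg
Thbs4: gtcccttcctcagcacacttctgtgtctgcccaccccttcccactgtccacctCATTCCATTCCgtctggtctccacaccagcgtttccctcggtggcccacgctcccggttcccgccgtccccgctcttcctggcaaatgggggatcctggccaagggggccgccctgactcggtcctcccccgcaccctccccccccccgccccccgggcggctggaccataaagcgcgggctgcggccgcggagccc
Ccn1: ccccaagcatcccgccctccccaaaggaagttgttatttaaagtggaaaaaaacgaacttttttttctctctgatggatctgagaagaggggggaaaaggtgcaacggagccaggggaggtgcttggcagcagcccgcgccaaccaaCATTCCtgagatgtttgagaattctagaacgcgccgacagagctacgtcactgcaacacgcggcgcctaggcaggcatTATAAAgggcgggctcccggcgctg

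The Ccn1 window held the TEAD core in reverse, CATTCC, at -103 and a TATAAA at -25 from the start. In the Thbs4 window CATTCC occurred at -197 and -192, overlapping by a base, and in the Spp1 window the match was a TATAAA at -211. Tnc has windows for 2 starts, which share a TATAAA at -126 from the one and -205 from the other. Positions count back from the base before the start, which is -1, to the first base of the match. Among windows of the same length in RefSeq, 12.6% held GGAATG on either strand and 7.59% held TATAAA. The AP-1 core and the CArG box, present in 6.75% and 1.47% of such windows, were found in none of the members' windows. A match is a run of letters and not a site shown to be bound.

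The members differed widely in level. Per kilobase of exon (RPKM, computed here with exon lengths of the GENCODE M21 annotation), Sparcl1 came first at 92.5 ± 2.81 RPKM in the controls, followed by Sparc, the collagen-binding glycoprotein osteonectin, at 72.8 ± 13.2 (SD, n = 3). Over all 6 libraries Sparcl1 ranged from 90.72 to 100.7 RPKM and Sparc from 54.9 to 90.69, so their ranges nearly met. A wide step separated these from Spp1 at 18.4 ± 1.505 RPKM and Tnr at 12.3 ± 0.358 in the controls, and the ranges of Spp1 and Tnr overlapped. Ccn2 at 8.16 ± 2.06 RPKM, Thbs1 at 6.83 ± 1.67 and Tnc at 4.01 ± 0.167 came next, with Thbs1 overlapping both of its neighbours. Ccn1 stood at 1.18 ± 0.217 RPKM, Thbs4 at 0.516 ± 0.485 and Thbs2 at 0.180 ± 0.0492. The ranges of Ccn1 and Thbs4 overlapped at the exon length used for Ccn1, 6102 bases. That length was not checked, and a shorter one would raise the RPKM of Ccn1. The ranges of Thbs4 and Thbs2 overlapped as well.

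**Figure D1:**
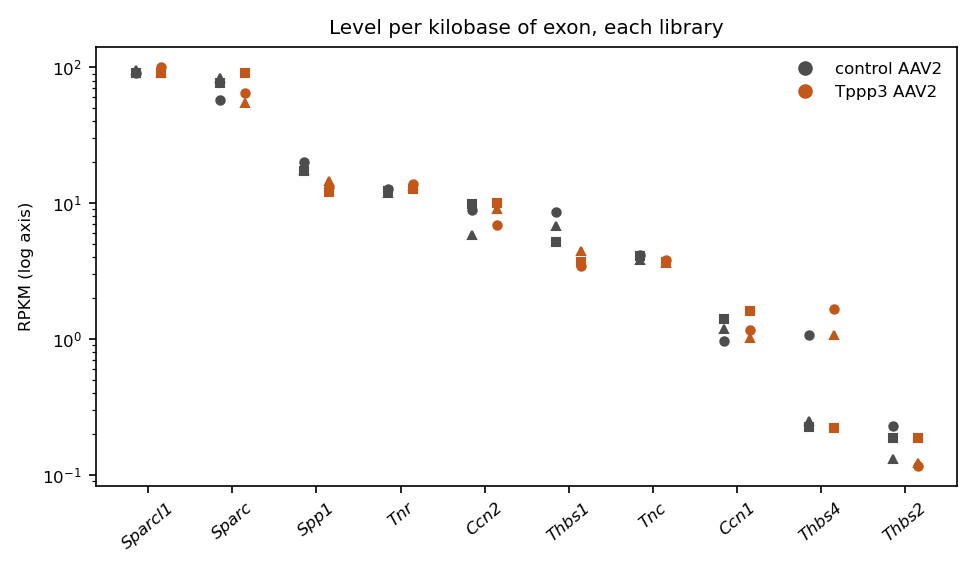
Level of each matricellular gene per kilobase of exon (RPKM, log axis) in the 3 control AAV2 and 3 Tppp3 AAV2 libraries, 1 point a library, circles, squares and triangles standing for replicates 1, 2 and 3. Sparcl1 and Sparc lie far above the rest, and Thbs4 has high and low libraries in both groups.

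No member passed edgeR's quasi-likelihood test at an adjusted p under 0.05 over all genes, where 0.0136% of genes did (2 of 14750). At an unadjusted p under 0.05 stood 2 of the 10 members, Thbs1 and Spp1, both lower with Tppp3 AAV2. Among all genes tested, 7.23% had an unadjusted p under 0.05 and 3.55% had one in the lower direction. The groups did not overlap for 3 members, Thbs1 and Spp1 on the lower side and Tnr on the higher, against 13.9% of all genes (7.02% lower and 6.92% higher). The members were chosen with earlier results of these data known, so these shares are descriptions and no test of an excess. The median log2 fold change was -0.012 over the members and 0.0030 over all genes, with 5 members negative and 5 positive. The members' median changed sign, to 0.0040 without control replicate 2 and 0.049 without Tppp3 replicate 3.

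**Figure D2:**
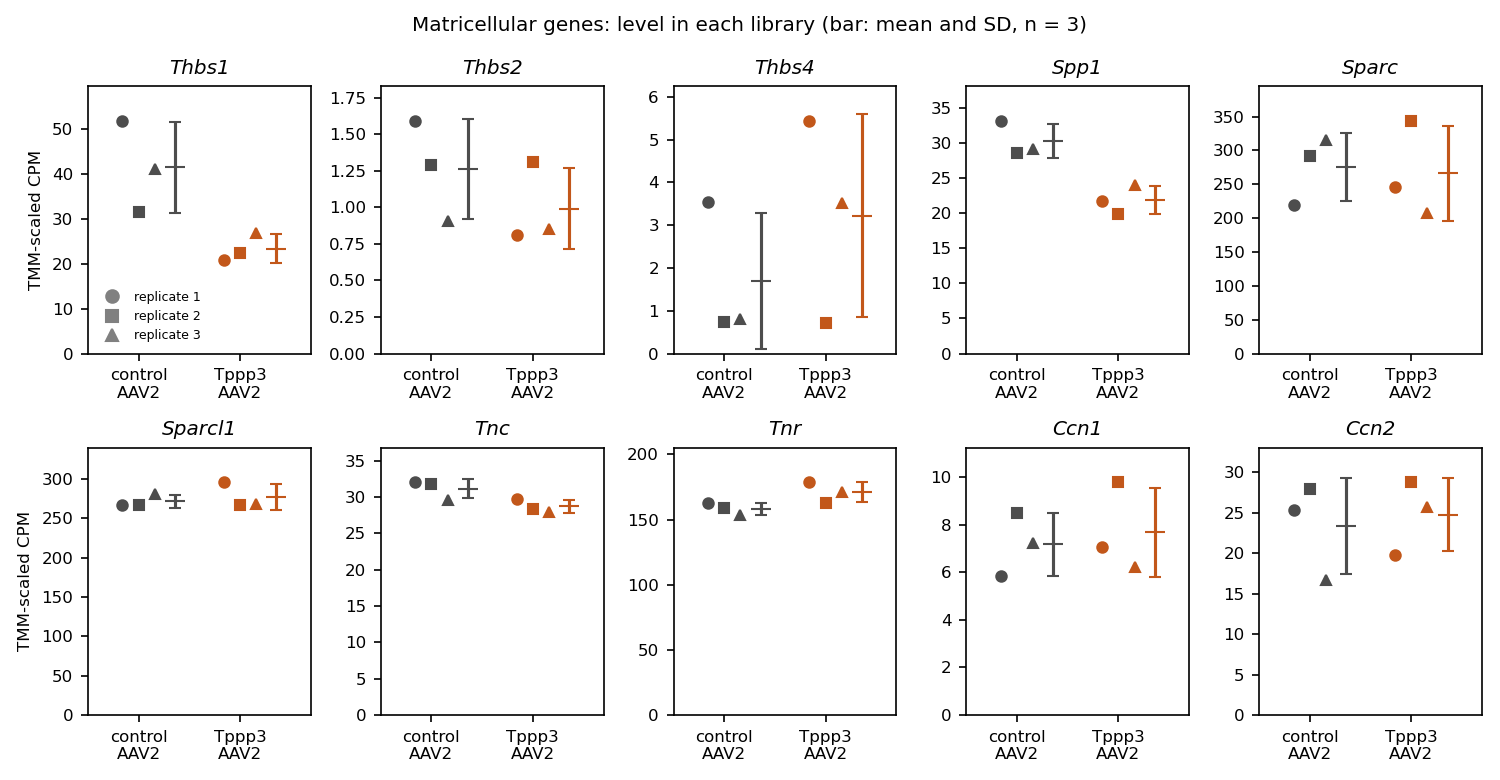
TMM-scaled CPM of each matricellular gene by library, with the mean and SD (n = 3) of each group beside the points; the vertical axis of each panel starts at 0. Thbs1 and Spp1 lie lower in each Tppp3 AAV2 library than in any control library, and Tnr lies higher by a small amount.

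Thrombospondins are large secreted glycoproteins. Thbs1 and Thbs2 encode the trimeric members, which restrain blood vessel growth through CD36 and CD47, and thrombospondin 1 also activates latent TGF-beta. Thbs1 had the largest difference among the members on the lower side. Its level was 51.8, 31.6 and 41.03 CPM in control replicates 1, 2 and 3, and 20.7, 22.4 and 26.9 CPM in Tppp3 replicates 1, 2 and 3. The lowest control library, replicate 2, thus lay above the highest Tppp3 library, replicate 3, and the controls were the more scattered group. The means were 41.5 ± 10.1 and 23.3 ± 3.21 CPM (SD, n = 3 per group). Before scaling, Thbs1 had 586, 514 and 454 raw counts in the shallower control libraries against 408, 496 and 567 with Tppp3 AAV2, values that overlap.

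The log2 fold change of Thbs1 was -0.82 ± 0.20 (SE; 95% interval -1.31 to -0.34), a level 0.565 times that of the controls, at rank 113 of all genes by p. Its unadjusted p was 0.00570 and its edgeR adjusted p 0.639, and the two-sided exact permutation test gave 0.1, the smallest p that 3 against 3 libraries allow. DESeq2's Wald test called Thbs1, with an adjusted p of 0.000767 and the same log2 fold change of -0.82. It was the only member called by any of the 14 alternatives, which gave it an adjusted p of 0.000767 to 0.907. Dropping 1 library at a time gave log2 fold changes between -0.99 (without control replicate 2) and -0.63 (without control replicate 1).

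Some markers of epithelium outside the retina, among them Krt7, Krt8 and Krt14, were lower in the same libraries as Thbs1, and others of the list were not. All 5 tested genes of that list of 9 were lower with Tppp3 AAV2, 4 of them at an unadjusted p under 0.05, with a median log2 fold change of -0.79. Among all genes tested, 3.55% had an edgeR unadjusted p under 0.05 on the lower side. The list was drawn up with earlier results of these data known, so its count is a description. Krt7 passed over all genes (log2 fold change -0.95, edgeR adjusted p = 0.0321), but the call was lost when any 1 library was dropped (adjusted p 0.0625 to 0.303), and with voom (0.0642), a replicate block (0.0892) and a sex covariate (0.128). Its lowest adjusted p over the alternatives was 1.48e-05. The sum over the list was 116, 106 and 129 CPM in control replicates 1, 2 and 3, and 75.6, 99.5 and 93.7 CPM in Tppp3 replicates 1, 2 and 3. The 4 genes too low to test had higher means with Tppp3 AAV2, at 0.0410 and 0.735 CPM for Krt5, 0.273 and 0.462 for Krt12, and 0.0295 and 0.222 for Krt15, while Krt19 was at 0 in all 3 controls and at a mean of 0.364 CPM with Tppp3 AAV2. Of these, Krt12, Krt15 and Krt19 lay under 1 CPM in all 6 libraries. By root mean square difference of centred log2 CPM over the 6 libraries, the genes most like Thbs1 among 11570 were Krt8 (0.169) and Krt14 (0.177), where the median gene differed by 0.478. The list is named for the tissue its genes were chosen for. Whether such epithelium was in these samples was not tested, nor was its part in the Thbs1 result.

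Thbs2 had few reads, at 10 to 29 counts a library. It stood at 1.59, 1.29 and 0.904 CPM in control libraries and 0.813, 1.31 and 0.855 in Tppp3 AAV2 libraries, and the groups overlapped. The log2 fold change was -0.34 (95% interval -1.18 to 0.49), and it moved to -0.16 without control replicate 1 and to -0.60 without Tppp3 replicate 2. The genes most like Thbs2 were Ripk4 and Ppm1m, at root mean square differences of 0.111 and 0.142 against a median of 0.345.

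Thbs4 encodes a pentameric thrombospondin of tendon, muscle and nervous tissue. Its level was 3.54, 0.738 and 0.813 CPM in control replicates 1, 2 and 3, and 5.44, 0.722 and 3.51 CPM in Tppp3 replicates 1, 2 and 3. Each group therefore held both high and low libraries, and the highest library had 7.53 times the level of the lowest, a wider spread than in 98.98% of genes at 1 CPM or more. The log2 fold change of 0.95 had a 95% interval of -1.55 to 3.46 (edgeR adjusted p = 0.880), and it moved from 0.34 without Tppp3 replicate 1 to 2.04 without control replicate 1. The high libraries were those with more pigment epithelium markers, whose sum was 156, 45.2 and 47.99 CPM in control libraries and 160, 61.3 and 153 CPM in Tppp3 AAV2 libraries. None of these markers was at 0 in all libraries, and 3 lay under 1 CPM throughout. Not every gene of the list followed this split. Mitf stood at 9.94 to 11.5 CPM in all 6 libraries, and Best1 was highest in control replicate 3 at 0.633 CPM. All 9 tested genes of that list of 11 had a positive fold change, with a median of 0.71 on the log2 scale. The genes most like Thbs4 were Slc16a8 and Rgr, at root mean square differences of 0.211 and 0.345. The part of pigment epithelium in the Thbs4 result was not tested.

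Spp1 encodes osteopontin, an integrin- and CD44-binding phosphoprotein. It had the smallest p of the members, at rank 12 of all genes tested. Its level was 33.1, 28.6 and 29.1 CPM in control replicates 1, 2 and 3 and 21.7, 19.9 and 24.0 CPM in Tppp3 replicates 1, 2 and 3. All 3 controls thus lay above all 3 Tppp3 libraries, and the spread within each group was small, at most 1.20 times from lowest to highest. The log2 fold change was -0.47 ± 0.095 (SE; 95% interval -0.68 to -0.26), a level 0.722 times that of the controls. It had an unadjusted p of 4.5e-04 and an edgeR adjusted p of 0.550, and the exact permutation test again gave 0.1. It lay between -0.54 and -0.40 when any 1 library was dropped, and the alternatives gave an adjusted p of 0.143 to 0.894.

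Marker lists of ganglion cells and of microglia and macrophages overlapped between the groups. Ganglion cell markers summed to 828, 827 and 840.1 CPM in control libraries and 892, 770 and 806 in Tppp3 AAV2 libraries. Of this list 7 of 12 genes were negative, and its median log2 fold change was -0.016. Microglia and macrophage markers summed to 124, 201 and 203 CPM in control libraries and 135, 241 and 109 in Tppp3 AAV2 libraries. The epithelial list described beside Thbs1 was lower with Tppp3 AAV2 without overlap, at 106 to 129 CPM in control and 75.6 to 99.5 in Tppp3 AAV2 libraries. Within it Krt18 overlapped, at 57.1, 56.5 and 64.2 CPM in control libraries and 44.9, 69.0 and 53.8 in Tppp3 AAV2 libraries. The horizontal cell list also separated the groups, on the higher side, at 111 to 114.03 CPM in control and 114.22 to 118 in Tppp3 AAV2 libraries. The part of any of these lists, those of ganglion cells and of microglia and macrophages included, in the Spp1 result was not tested. The genes most like Spp1 over the 6 libraries were Plxdc1 and Chaf1a, at 0.0534 and 0.0613 against a median of 0.274.

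**Figure D3:**
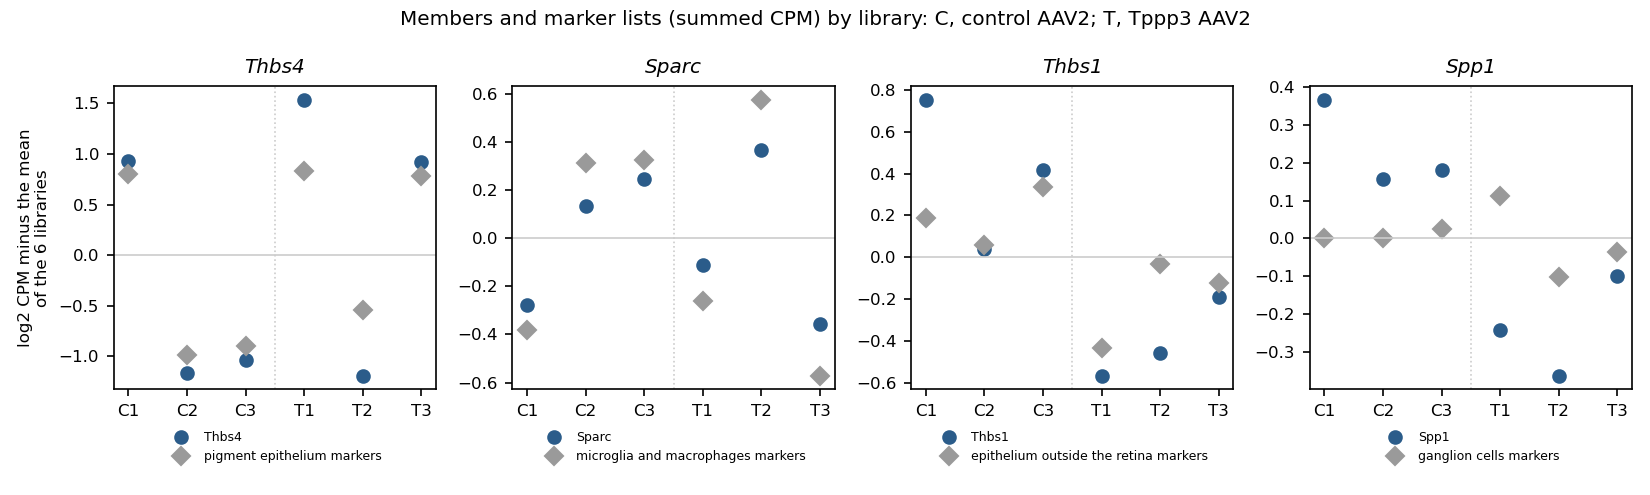
Log2 CPM of 4 members and of the summed CPM of a marker list, each minus its mean over the 6 libraries, by library (C, control AAV2; T, Tppp3 AAV2; numbers are replicates). Thbs4 is high in the same 3 libraries as the pigment epithelium markers, Sparc in the same 3 as the microglia and macrophage markers, and Thbs1 and the summed epithelial markers are both lower in the Tppp3 AAV2 libraries. The ganglion cell markers beside Spp1 overlap between the groups.

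Sparc and Sparcl1 encode related calcium-binding glycoproteins with opposite actions on synapses in the visual system, where SPARC counters the synapse-promoting SPARC-like 1. Sparc stood at 219, 292 and 316 CPM in control replicates 1, 2 and 3 and at 247, 344 and 208 CPM in Tppp3 replicates 1, 2 and 3. High and low libraries occurred in both groups, and the means of 276 ± 50.2 and 266 ± 69.8 CPM differed by less than their spread. The log2 fold change was -0.051 (95% interval -0.74 to 0.64, edgeR adjusted p = 0.983), and it turned to 0.097 without Tppp3 replicate 3 and 0.056 without control replicate 3. The 3 libraries with most Sparc, control replicates 2 and 3 and Tppp3 replicate 2, had the highest sums of microglia and macrophage markers. In that list 8 of 11 tested genes were negative, with a median of -0.14 on the log2 scale, and none was at 0 in all libraries. Not every gene of it followed Sparc. Lyz2 and P2ry12 were lower in control replicate 2 (11.5 and 4.24 CPM) than in control replicate 1 (15.4 and 4.60 CPM). The genes most like Sparc were Cd9 and Plek, at 0.0546 and 0.0579 against a median of 0.288. Gfap, of the astrocyte list, was also highest in the 3 libraries with most Sparc. It stood at 39.6, 98.4 and 97.2 CPM in control libraries and 74.4, 109 and 32.9 in Tppp3 AAV2 libraries. The sum of the astrocyte list was instead highest in Tppp3 replicate 1, at 470 CPM, most of it from Slc38a1 at 366 CPM. The other genes of that list did not follow Sparc. S100b was highest in control replicate 1 (4.69 CPM) and Slc38a1 in Tppp3 replicate 1. Aldh1l1 was higher in Tppp3 replicate 1 (26.0 CPM) than in control replicate 2 (20.1 CPM), and Pax2 was lowest in control replicate 3 (0.452 CPM). The part of microglia, macrophages or astrocytes in the Sparc result was not tested.

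Sparcl1 was among the steadiest members. It stood at 267, 267 and 281 CPM in control libraries and 296, 266 and 269 CPM in Tppp3 AAV2 libraries, with the highest library only 1.11 times the lowest. Its log2 fold change was 0.027 with a 95% interval of -0.092 to 0.15. The sign turned, to -0.028, without Tppp3 replicate 1. Taf12 was most like it, at 0.0185 against a median of 0.11.

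Tenascins form large oligomers in the matrix. Tnc encodes tenascin-C, which glia produce during development and after injury, and Tnr encodes tenascin-R, a component of perineuronal nets that inhibits neurite growth. Tnc stood at 32.0, 31.8 and 29.6 CPM in control libraries and 29.7, 28.4 and 27.96 in Tppp3 AAV2 libraries, where control replicate 3 and Tppp3 replicate 1 narrowly overlapped. Its log2 fold change was -0.12 (95% interval -0.28 to 0.043, edgeR adjusted p = 0.775). Tnr stood at 163, 159 and 154 CPM in control libraries and 178, 163.04 and 171 in Tppp3 AAV2 libraries. The lowest Tppp3 library, replicate 2, exceeded the highest control, replicate 1 at 162.7 CPM, by a margin far below the spread within either group. The log2 fold change of Tnr was 0.11 ± 0.051 (SE; 95% interval -0.0037 to 0.22), with an unadjusted p of 0.0567 and an edgeR adjusted p of 0.702. Its unadjusted p ranged from 0.0208 (without Tppp3 replicate 2) to 0.218 (without Tppp3 replicate 1) and was under 0.05 in 1 other alternative, limma's voom, at 0.0414, while the adjusted p stayed at 0.491 or more over the alternatives. Both tenascin genes varied little, with a highest library 1.14 times the lowest for Tnc and 1.16 times for Tnr. Nat10 and Tssc4 were most like Tnc (0.0149 and 0.018 against a median of 0.119), and Cpeb3 and Ubtf most like Tnr (0.00997 and 0.0111 against 0.115).

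Ccn1 (Cyr61) and Ccn2 (connective tissue growth factor) encode modular proteins that bind integrins, and both are common readouts of YAP-TEAD and TGF-beta signalling. Ccn1 stood at 5.83, 8.48 and 7.23 CPM in control libraries and 7.06, 9.79 and 6.22 CPM in Tppp3 AAV2 libraries. For Ccn2 the levels were 25.4, 28.0 and 16.7 CPM in control libraries and 19.8, 28.7 and 25.7 CPM in Tppp3 AAV2 libraries. Replicate 2 was the highest library of its group for both genes, in both groups, and the groups overlapped widely. The log2 fold changes were 0.092 for Ccn1 (95% interval -0.35 to 0.54) and 0.078 for Ccn2 (95% interval -0.47 to 0.63), with edgeR adjusted p of 0.950 and 0.965. Either sign was reached when 1 library was dropped, from -0.12 to 0.24 for Ccn1 and from -0.11 to 0.23 for Ccn2. Flot1 and Zdhhc23 were most like Ccn1 (0.0624 and 0.0705 against a median of 0.27), and Zfp418 and Dffb most like Ccn2 (0.0367 and 0.0776 against 0.294).

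**Figure D4:**
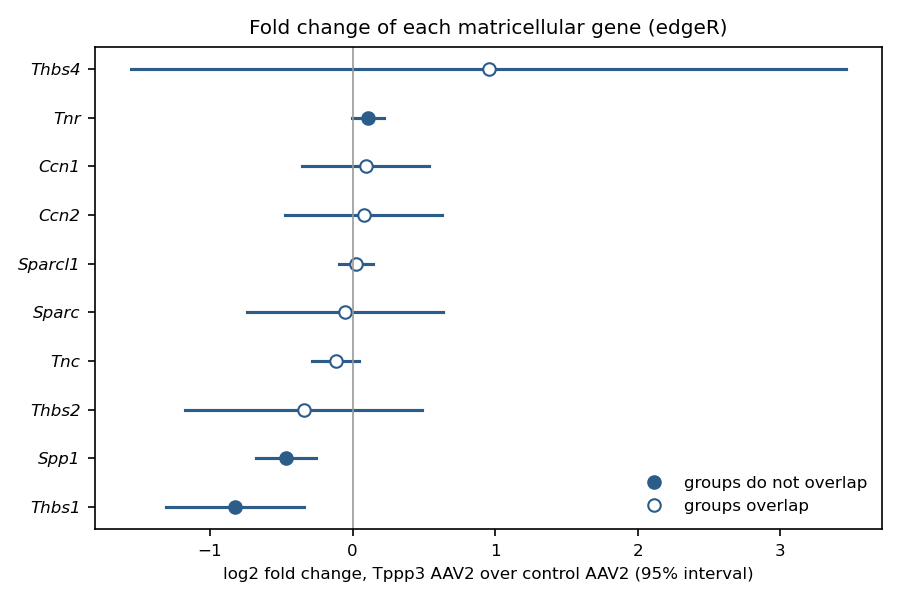
Log2 fold change of each matricellular gene, Tppp3 AAV2 over control AAV2, from edgeR's fit, with its 95% interval; filled points are genes whose groups do not overlap. Only the intervals of Thbs1 and Spp1 exclude 0, and that of Thbs4 spans from -1.55 to 3.46.

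The other genes of these families were read from the same fit. Of 20 relatives, 12 were tested, and none passed over all genes, at an unadjusted p under 0.05 or without overlap. Their median log2 fold change was 0.050, with 3 negative and 9 positive. The SPARC-family proteoglycan gene Spock2 was abundant, at 459 ± 15.5 CPM in control libraries and 477 ± 36.04 in Tppp3 AAV2 libraries. Those of smallest p were Ccn4, which encodes a CCN protein regulated by Wnt signalling (52.1 ± 7.10 and 43.7 ± 8.70 CPM, log2 fold change -0.25), the SPARC-related Smoc2 (-0.40) and the proteoglycan gene Spock1 (0.13). Dropping 1 library moved Ccn4 between -0.43 and -0.15, Smoc2 between -0.68 (without Tppp3 replicate 2) and -0.19 (without Tppp3 replicate 3), and Spock1 between 0.012 (without Tppp3 replicate 1) and 0.22 (without control replicate 1). The other 8 had too few counts, and among them Tnn and Mepe were at 0 in all 6 libraries.

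Receptors for these proteins were tested in 24 of 25 cases, and none passed over all genes or at an unadjusted p under 0.05. Their median log2 fold change was 0.068 (14 positive, 10 negative), which changed sign to -0.020 without control replicate 1 and to -0.052 without Tppp3 replicate 2. Cd47, the thrombospondin receptor found on most cells, stood at 105 ± 13.6 CPM in control libraries and 121 ± 13.5 in Tppp3 AAV2 libraries. Cacna2d1, the calcium channel subunit through which thrombospondins act on synapses, stood at 70.5 ± 4.05 and 73.6 ± 5.26 CPM, and the osteopontin and hyaluronan receptor Cd44 at 21.6 ± 7.99 and 23.2 ± 9.28 CPM. By smallest p the rule named Ptprz1, a receptor phosphatase that binds tenascins (log2 fold change 0.20, unadjusted p = 0.0508), and the integrin chains Itga8 (-0.49, unadjusted p = 0.0595) and Itga5 (-0.37, unadjusted p = 0.0797). Dropping 1 library moved Ptprz1 between 0.13 and 0.31 and Itga5 between -0.48 and -0.18. The groups did not overlap for 1 of the 24 receptors tested, against 13.9% of all genes. This was Itga8, at 3.50 ± 0.273 and 2.48 ± 0.364 CPM (SD, n = 3 per group).

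Matrix partners of the tenascins included the only gene past the threshold among the relatives, receptors, matrix partners and YAP-TEAD targets. Fn1, the gene of fibronectin, stood at 160.1 ± 12.8 CPM in control libraries and 105 ± 4.16 in Tppp3 AAV2 libraries, a log2 fold change of -0.61 with an edgeR adjusted p of 0.0138. Leaving out control replicate 3, Tppp3 replicate 2 or Tppp3 replicate 3 ended the call, with an adjusted p of 0.112, 0.0642 and 0.148, as did a sex covariate with 0.0885. Its lowest adjusted p over the alternatives was 8.03e-12. The groups did not overlap for Fn1 and Hapln3 (4.02 ± 0.366 and 3.20 ± 0.287 CPM), 2 of the 6 partners tested, against 13.9% of all genes. Of 9 partners 6 were tested, with a median log2 fold change of -0.24 and 4 negative, and the link protein genes Hapln4 and Hapln3 stood at -0.36 and -0.33. The median moved to -0.16 with DESeq2 and without a low-count filter, which tested more low-count genes, and to -0.15 without Tppp3 replicate 2. Hapln4 moved to -0.23 without Tppp3 replicate 2 and to -0.54 without Tppp3 replicate 3. Vcan, which encodes versican and was picked out after its values were seen, had a log2 fold change of 1.03 with a 95% interval of -0.56 to 2.61. Its level was 12.2, 3.63 and 3.43 CPM in control replicates 1, 2 and 3 and 12.1, 9.74 and 16.8 CPM in Tppp3 replicates 1, 2 and 3, so control replicate 1 lay among the Tppp3 libraries.

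Targets of YAP and TEAD, which follow a published signature with Ccn1 and Ccn2 removed, were tested for 19 of 20 genes. None passed over all genes or at an unadjusted p under 0.05, and the median log2 fold change was 0.030, with 11 positive and 8 negative. The groups did not overlap for 1 of the 19 targets tested, against 13.9% of all genes. This was Tgfb2, the gene of a TGF-beta ligand, at 88.5 ± 3.59 and 95.99 ± 4.26 CPM (log2 fold change 0.12, edgeR unadjusted p = 0.0621). Igfbp3, an insulin-like growth factor binding protein gene, stood at 0.36 and the Hippo kinase gene Lats2 at 0.082, which dropping 1 library moved between 0.19 and 0.48 and between 0.041 and 0.12.

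**Figure D5:**
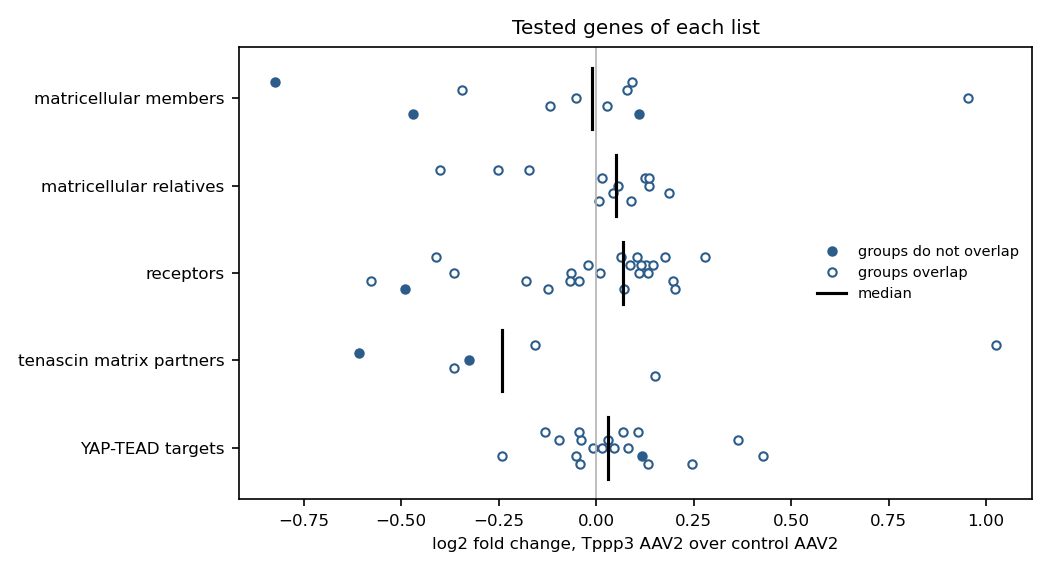
Log2 fold change (edgeR) of each tested gene, 1 point a gene, for the 10 matricellular members and 4 surrounding lists, with the median of each list as a bar; filled points are genes whose groups do not overlap. The medians of the members, relatives, receptors and YAP-TEAD targets lie between -0.012 and 0.068, and that of the tenascin partners at -0.24.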

How the data were processed

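Counts were the raw total counts per gene symbol in a single table deposited by the authors, whole numbers without any scaling, per the file headers. Oligo(dT)-enriched RNA went into NEBNext Ultra II RNA libraries, read as pairs of 150 bases, per the labels' protocols, and the submitters' processing notes name build GRCm39 (mm39). The aligner is not given in the sources used here, nor is the counter or its strand handling. Reads that overlapping genes share may therefore be split in unknown ways.

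Columns were used where their name matched a sample title, which gave replicates 1, 2 and 3 of each group. By title there are 4 control and 3 Tppp3 samples, whereas the treatment protocol gives 4 Tppp3 and 3 control retinas. The control sample titled 4 had no column of that name and was not analysed here. In the table, 1 column, named as a Tppp3 library numbered 4, matched no sample title and was not used, so the Tppp3 group's n of 3 may leave out a library. A spike-in is stated in the protocols, but 0 rows used here carry its name.

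Genes were filtered by edgeR's filterByExpr (14750 of 25655 kept), scaled by TMM and tested with edgeR's quasi-likelihood F test (robust, two-sided, Benjamini-Hochberg over all genes, threshold 0.05). CPM are relative to the effective library size, centred log2 CPM used a prior count of 2, and the biological coefficient of variation common to all genes was 11.9%. The F statistic and the fold change gave the standard error. Chi-square statistics per gene of 3.995 to 13.4 within groups gave no sign of a library deposited under 2 names in the same group. Pairs of libraries across the groups were not compared in this way. The fit was tested on simulated counts. The members and all lists were chosen with earlier results of these data known. Named genes were the members, Tppp3, the 3 of smallest p in each surrounding list and, for each member, the 2 genes of at least 5 CPM whose centred log2 CPM differed least. Of the latter, 1 is not reported here. Spock2, Cd47, Cacna2d1, Cd44, Krt7 and Vcan were added after their values were seen. Xist, planned for the sex covariate, was not used, and the Y chromosome gene Ddx3y alone was. Ddx3y had 797 counts in control replicate 1 and 1570 in Tppp3 replicate 2, against 4 to 15 in the other libraries. By this marker the libraries of each group differed in sex. Fits used edgeR 4.0.16 in R 4.3.3, with limma 3.58.1 and DESeq2 1.42.0 for alternatives, and matplotlib 3.10.9 drew the plots. Other alternatives were 2 further scalings, 2 low-count filters, a replicate block, a sex covariate and leaving out each library.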

Additional observations from a re-analysis of the deposited data

How the results depend on the processing

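The count of 10 members with 0 past the threshold held in the alternatives other than DESeq2's Wald test, which called 1, Thbs1. The number of all genes past the threshold, 2 as reported, was 14 with DESeq2's Wald test, 1 with limma's voom with quality weights, 6 without a low-count filter and 0 with a sex covariate, and between 0 and 3 with single libraries left out. Members with an unadjusted p under 0.05 numbered 2 or 3, and members without overlap 3 or 4, in every alternative that gave a value. With voom, Ccn1 changed sign to -0.022 and Cd44 to -0.0044. With single libraries left out, Ccn1 ranged from -0.12 to 0.24, Ccn2 from -0.11 to 0.23, Sparc from -0.28 to 0.097, Sparcl1 from -0.028 to 0.054, Cd44 from -0.22 to 0.43 and Fn1 from -0.66 to -0.55 on the log2 scale. The other members kept their sign in all 14 alternatives. With the replicate number as a block (replicate block) 1 gene passed in all and 0 members. Deviations from the group means correlated at -0.029, 0.051 and -0.262 across genes for same-numbered libraries of the 2 groups. Differently numbered pairs reached -0.224 and 0.255, so these values cannot show whether libraries of the same number shared more than that number. Thbs2 had 10 to 29 counts a library and Thbs4 had 9 to 107, with biological coefficients of variation of 25.7% and 77.3%.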
